A study of Frankliniella occidentalis and Frankliniella intonsa with 9 samples.

Results

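Neuropeptides and amines are chemical messengers that nerve cells release, and most of them act through rhodopsin-like G-protein-coupled receptors. The table of antennal RNA held 51 assembled genes of this kind among 48889. They were taken where the annotation text named a neuropeptide, FMRFamide, allatostatin, tachykinin or neuroparsin, or where the predicted domains included 7tm_1, the rhodopsin-like receptor fold, and no text named an opsin. By wording, 6 were peptide precursors, 25 peptide receptors and 15 amine receptors, and 5 were neither. The wording took 21 genes and the domain 43, with 13 taken by both. A further 20 of the 63 genes with the domain carried opsin wording and were not taken.

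RNA was sequenced from antennae of adult thrips at 1 day of age. The 9 libraries were 3 of male Frankliniella occidentalis (the western flower thrips), 3 of female Frankliniella intonsa and 3 of female F. occidentalis. No treatment or altered genotype is given for any group. Whether each library came from its own insects or from a shared pool is not in the labels, and p-values cover no more than the spread among the sequenced samples, which could be technical. Values are TPM, a length-scaled share of the transcripts of a library, estimated on 1 assembly that holds transcripts of both species. The depth of each library is unknown.

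A peptide precursor is cut by convertases, trimmed by carboxypeptidases and often amidated at its end before it is secreted. SIFamide is an amidated peptide named after its last residues, made in Drosophila by a few brain neurons that send branches through most of the nervous system, and known there for effects on courtship, feeding and sleep. Neuroparsins are small cysteine-rich secreted proteins first described from locust neurosecretory cells. Octopamine and tyramine take the place in insects of adrenaline and noradrenaline, and dopamine and serotonin serve there as they do in vertebrates. Insect receptors are often named in databases after their nearest vertebrate relative, so a name such as growth hormone secretagogue receptor gives the family and not the ligand.

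Markers of other tissues were present beside those of the antenna. Markers of olfactory sensilla summed to 9766, 11135 and 9125 TPM in the 3 male libraries and to 7920, 7811 and 9554 TPM in the 3 female F. occidentalis libraries. A large part came from chemosensory proteins, with TRINITY_DN43094_c3_g1 alone at 3601.82, 2954.86 and 2404.88 TPM in males and 3112.29, 2633.86 and 3228.07 TPM in females. An odorant receptor coreceptor gene, TRINITY_DN45794_c1_g8, was at 6.45, 15.32 and 9.98 TPM in males and 5.87, 10.43 and 10.45 TPM in females. Eye and optic lobe markers were also high, with sums of 3400, 1392 and 2174 TPM in males and 2614, 3704 and 2956 TPM in females, as were muscle markers, with sums from 8176 to 12397 TPM in males and from 12754 to 17178 TPM in females. Fat body markers, taken by the wording vitellogenin, hexamerin or apolipophorin, summed to between 86.9 and 155.8 TPM in males, against 6664 to 12465 TPM in females. Of the 44 tested, 35 were called lower in males, a direction found in 0.918% of all genes tested. Vitellogenin is a yolk protein, so this sum cannot tell fat body content from a sex difference in the genes themselves. Of the 3 F. intonsa libraries, replicates 1 and 3 stood apart: their olfactory markers summed to 1292 and 191.2 TPM, against 9636 TPM in replicate 2. Male replicate 3 stood apart for the receptors, as described with them. The part of these other tissues in the results was not tested.

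Among these genes, the largest differences between the sexes lay in the SIFamide/FMRFamide-like precursors. Between males and females of F. occidentalis, 45 of the 51 genes could be tested, and 2 passed an adjusted p of 0.05 in limma (4.44%), beside 1.89% of all 22015 genes tested. Both were higher in males, a direction found in 0.968% of all genes tested. They lie in the same component of the assembly, described below, and whether they are pieces of 1 gene was not tested. At an unadjusted p under 0.05 there were 10 of the 45, beside 15.5% of all genes tested. The values of all 3 males lay above those of all 3 females in 12 of the 45 (26.7%), beside 13.3% of all genes tested. All males lay below all females in 1, beside 6.83% of all genes tested. These counts are descriptions, because the table lists only genes that reached 5.01 TPM in some library. Of the 51 genes, 54.9% reached 5 TPM in males alone, beside 17.8% of all genes. The 2 that passed were not among those.

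The 3 SIFamide/FMRFamide-like genes shared 1 component of the assembly, a group of contigs that the assembler put together. All 3 matched the Swiss-Prot entry for FMRFamide-related neuropeptides of the crayfish Procambarus clarkii. The closest database protein of 2 of them is also called FMRFamide-related, while that of the third is called SIFamide, from the moth Helicoverpa armigera. The names come from these matches and the peptides themselves were not read here.

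TRINITY_DN38821_c0_g2 had 881.51, 1092.65 and 612.46 TPM in the 3 males, against 158.18, 106.09 and 192.56 TPM in the 3 females. The lowest male was far above the highest female. Its means were 862.2 ± 241 TPM in males and 152.3 ± 43.5 TPM in females (SD, n = 3 each). The log2 fold change was 2.50 ± 0.32 (SE), and its adjusted p in limma was 0.00894. TRINITY_DN38821_c0_g4 had 270.35, 268.21 and 447.96 TPM in males and 82.24, 35.91 and 67.62 TPM in females, again with no overlap. Its log2 fold change was 2.43 ± 0.37 (SE), with an adjusted p of 0.0190 in limma. Without female replicate 1 or 2 neither gene passed: adjusted p was 0.0787 and 0.0816 for the first and 0.0698 and 0.105 for the second. The log2 fold changes then ranged between 2.08 and 2.67, while over all genes only 18 and 23 passed in those fits.

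Summed over the 3 genes, the precursors were at 1152, 1361 and 1060 TPM in males and 240.4, 142.0 and 260.2 TPM in females. Male replicate 3, low for most receptors, kept a high precursor sum. Its mixture differed: the first gene was 1.37 times the second there, against 3.26 and 4.07 times in the other males and between 1.92 and 2.95 times in females. The component also held an unannotated contig of 329 bases, TRINITY_DN38821_c0_g1, at 480.16, 764.99 and 1.35 TPM in males and 15.66, 29.76 and 71.96 TPM in females. Its adjusted p in limma was 0.765, and male replicate 3 was the lowest of the 6 libraries. With all 5 contigs of the component summed, the log2 fold change was 2.65 ± 0.32 (SE), with an adjusted p of 0.00634 in limma.

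In bulk RNA, more cells of a type and more RNA per cell cannot be told apart, so the level of neuron markers was set beside this sum. The 18 neuron markers summed to 275.1, 299.5 and 150.3 TPM in males and 115.3, 146.2 and 155.6 TPM in females, so male replicates 1 and 2 were above all females and male replicate 3 was within them. Divided by that sum, the precursors were at 4.19, 4.54 and 7.06 in males and at 2.08, 0.971 and 1.67 in females, without overlap. The marker sum covers nerve cells in general and cannot show how many cells that make this peptide were sampled. Of the 14 neuron markers tested, 0 passed an adjusted p of 0.05 in limma, and all 14 had a positive log2 fold change. At an unadjusted p under 0.05 there were 5, beside 15.5% of all genes tested. The part of nerve tissue content in the results was not tested.

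**Figure D1:**
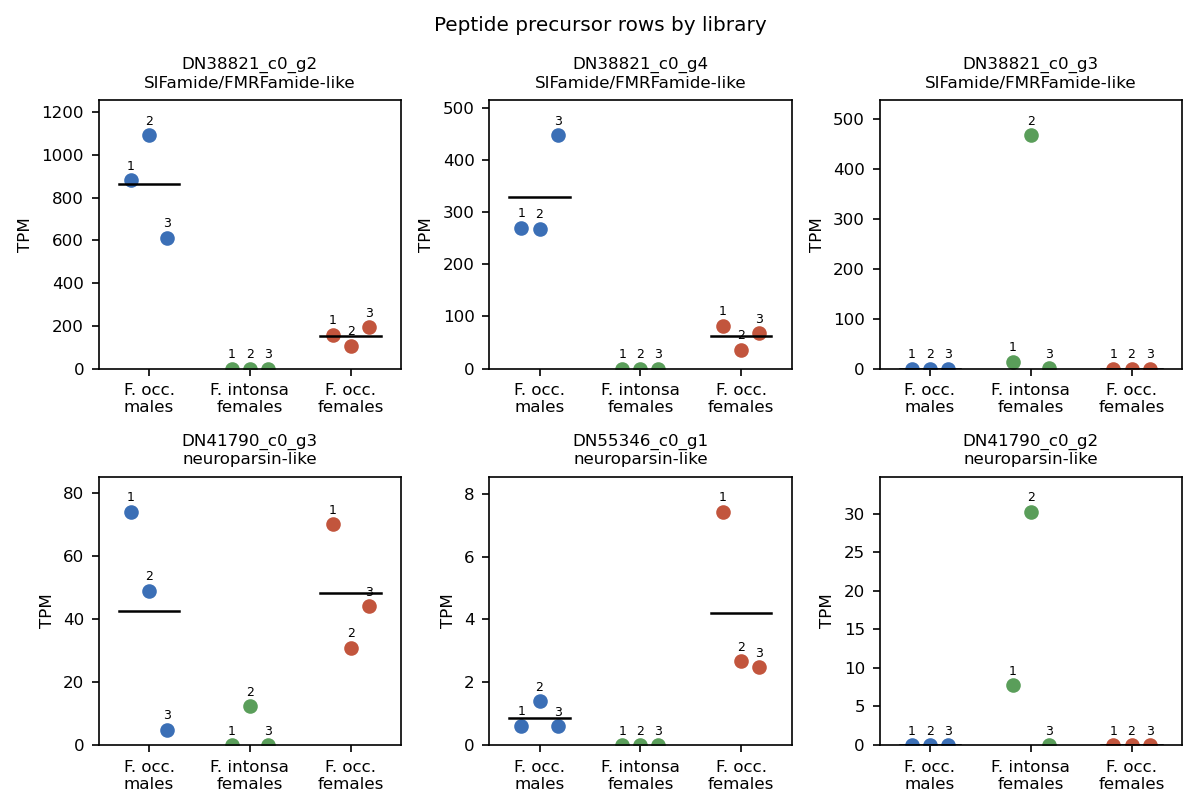
TPM of the 6 peptide precursor genes in each library (points, with the replicate number above), for F. occidentalis males, F. intonsa females and F. occidentalis females, with horizontal lines at the means of the F. occidentalis groups and a separate linear axis for each gene. In the first 2 panels the 3 males lie above all females, between 612.46 and 1092.65 TPM and between 268.21 and 447.96 TPM.

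The neuroparsin-like precursors did not share that pattern. TRINITY_DN41790_c0_g3 had 73.93, 48.84 and 4.90 TPM in males and 69.90, 30.87 and 43.98 TPM in females, so the groups overlapped and male replicate 3 was the lowest of the 6. Its log2 fold change was -0.74 ± 0.82 (SE), with an adjusted p of 0.738 in limma, and it was 0.39 without male replicate 3. TRINITY_DN55346_c0_g1 was a minor form at 0.62, 1.40 and 0.59 TPM in males and 7.43, 2.67 and 2.48 TPM in females. All males lay below all females, and its log2 fold change of -1.37 ± 0.56 (SE) did not pass, with an adjusted p of 0.280 in limma. The third neuroparsin-like gene was listed at 0 in every F. occidentalis library.

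The receptors were present at far lower levels than the SIFamide/FMRFamide-like precursors. The 25 peptide receptors summed to 161.1, 138.2 and 56.7 TPM in males (118.6 ± 54.9, SD, n = 3) and to 61.9, 54.5 and 70.5 TPM in females (62.3 ± 8.01, SD, n = 3). The 15 amine receptors summed to 51.7, 78.8 and 28.7 TPM in males and to 20.8, 22.2 and 29.8 TPM in females. In both classes male replicates 1 and 2 were above every female, and male replicate 3 was not. Per TPM of neuron markers, the 40 receptors came to 0.773, 0.724 and 0.568 in males and to 0.717, 0.524 and 0.644 in females, and the sexes overlapped.

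None of the 37 receptors tested passed an adjusted p of 0.05 in limma. At an unadjusted p under 0.05 there were 7, beside 15.5% of all genes tested. Peptide receptors had a median log2 fold change of 0.84, ranging between -1.05 and 1.46, and 21 of 24 were positive. For amine receptors the median was 0.67, the range 0.19 to 1.70, and 13 of 13 were positive. The median over all genes tested was 0.19. Quantile normalization took that median to -0.02 and the class medians to 0.61 and 0.38, with 19 of 24 and 12 of 13 positive. These figures are descriptions and not support for a sex difference, because the table lists only genes that reached 5.01 TPM in some library. At 5 TPM or more, 28 of the 51 genes (54.9%) were found only in males, including 18 peptide and 9 amine receptors, beside 17.8% of all genes.

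Male replicate 3 was the lowest male in 33 of the 37 tested receptors (89.2%), beside 48.4% of all tested genes and 48.2% of the 15022 tested genes with a mean of 1 to 10 TPM. In 19 of the 37 (51.4%), male replicates 1 and 2 were above all females and male replicate 3 was not. The same order held in 15.6% of all tested genes and in 16.2% of those of like level. Of the 40 receptors, 27 reached 5 TPM in males alone, and 21, 25 and 3 reached it in male replicates 1, 2 and 3. Entry to the table through male replicates 1 or 2 favours a low male replicate 3. These shares and the medians that follow are therefore descriptions. Without male replicate 3, the median log2 fold change was 1.23 for 24 peptide receptors and 0.86 for 12 amine receptors, against 0.30 over all genes tested, and still no receptor passed.

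**Figure D2:**
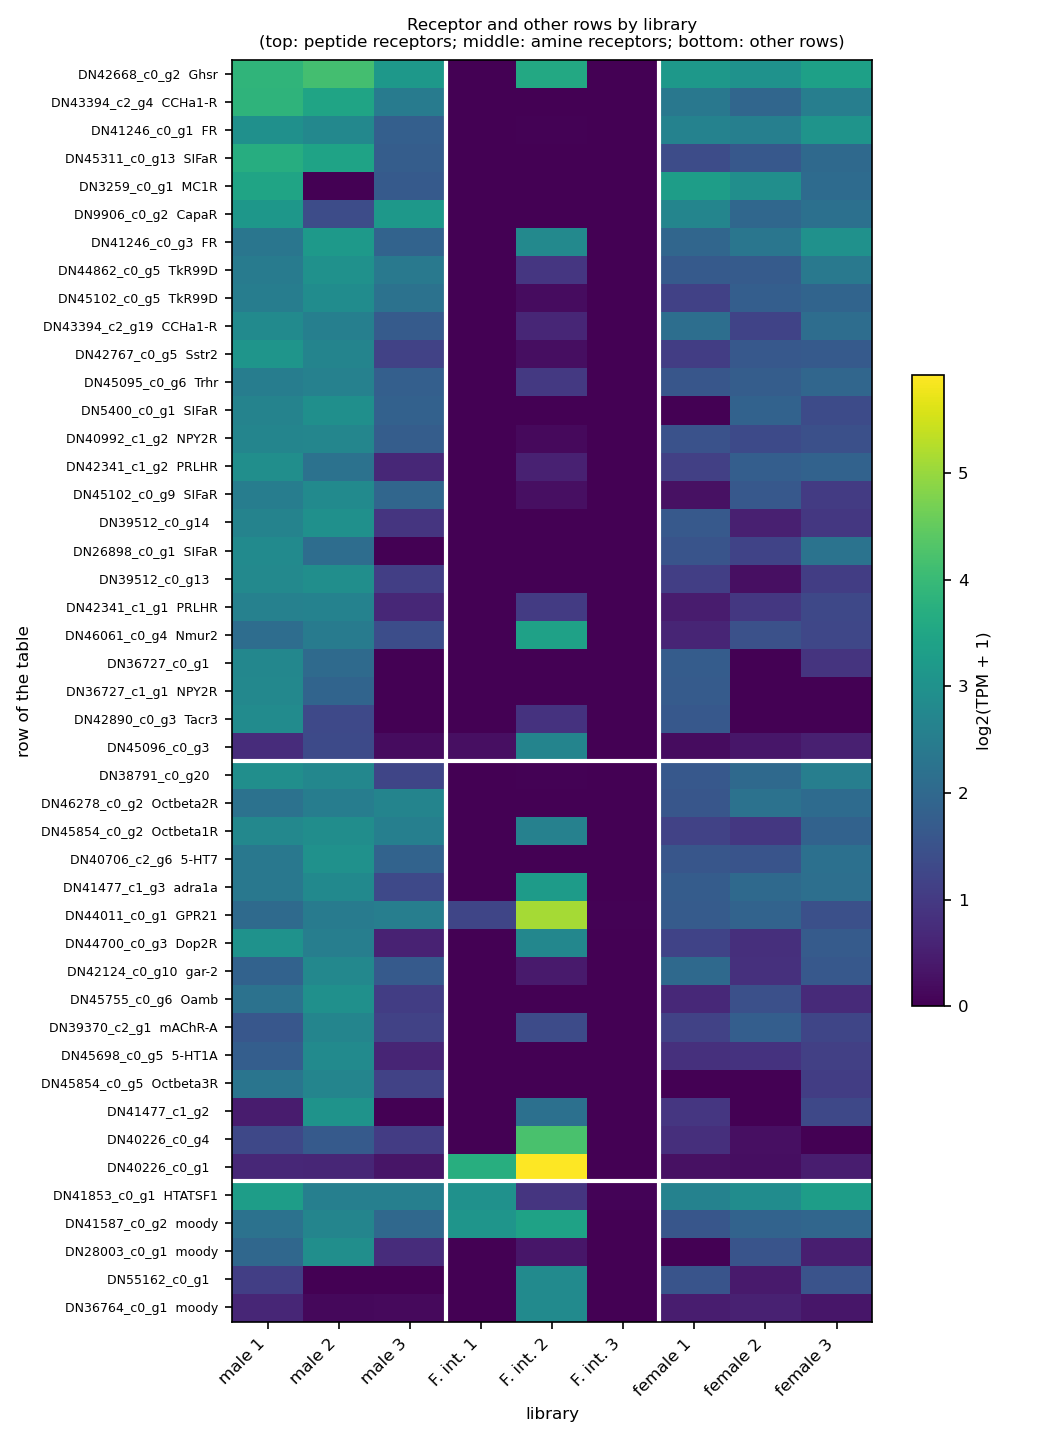
Expression as log2(TPM + 1), by colour, of the 25 peptide receptors (top), 15 amine receptors (middle) and 5 other genes (bottom), in order of falling mean over F. occidentalis within each block, with 1 column for each library. Male replicates 1 and 2 are brighter than the other F. occidentalis columns in most receptors, and F. intonsa replicates 1 and 3 are dark in nearly all of them.

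SIFamide acts in Drosophila through the SIFamide receptor, a relative of the vertebrate neuropeptide FF receptors. Of the 4 genes whose Swiss-Prot match was the SIFamide receptor of Drosophila, TRINITY_DN45311_c0_g13 was the most abundant. It had 11.89, 9.78 and 2.37 TPM in males and 1.59, 2.07 and 3.07 TPM in females. Males 1 and 2 were above every female, male 3 was within them, and its log2 fold change was 1.28 ± 0.54 (SE) with an adjusted p of 0.301 in limma. The other 3 SIFamide receptor-like genes are named for that match, after their values had been seen. TRINITY_DN45102_c0_g9 had 4.68, 6.17 and 2.85 TPM in males and 0.21, 2.07 and 1.03 TPM in females with no overlap. It stood at 1.46 ± 0.54 (SE) on the log2 scale, males over females, with an adjusted p of 0.226 in limma. TRINITY_DN5400_c0_g1 was at 5.24, 6.72 and 2.58 TPM in males and 0, 2.61 and 1.56 TPM in females, and the sexes met where male 3 fell just under female 2. TRINITY_DN26898_c0_g1, a short contig of 263 bases, was at 6.16, 3.36 and 0 TPM in males and 1.90, 1.28 and 3.76 TPM in females and overlapped fully. Summed, the 4 were at 28.0, 26.0 and 7.80 TPM in males and 3.70, 8.03 and 9.42 TPM in females. All 4 reached 5 TPM in males alone, so they entered the table through males. Their higher male values, and the lack of overlap in TRINITY_DN45102_c0_g9, rest in part on that selection and are a description. These contigs may be pieces of fewer genes, since the assembly does not say which belong together.

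The 2 FMRFamide receptor-like genes, named after the Drosophila receptor for that peptide family, were level between the sexes. TRINITY_DN41246_c0_g1 had 6.87, 5.78 and 2.45 TPM in males and 5.19, 4.92 and 7.33 TPM in females. TRINITY_DN41246_c0_g3 had 4.0, 8.09 and 2.69 TPM in males and 2.89, 4.04 and 7.02 TPM in females. Both overlapped, with log2 fold changes of -0.24 ± 0.41 and 0.03 ± 0.46 (SE) and adjusted p of 0.842 and 0.986 in limma. Neither direction was stable, as the first was 0.12 without male replicate 3 and the second -0.21 after quantile normalization.

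The most abundant gene of the class had a vertebrate name. TRINITY_DN42668_c0_g2, named after the vertebrate growth hormone secretagogue receptor, led with 13.53, 16.87 and 7.88 TPM in males and 7.92, 7.12 and 9.25 TPM in females. TRINITY_DN43394_c2_g4, matched to the Drosophila receptor of CCHamide-1, followed with 13.37, 9.98 and 4.55 TPM in males and 4.15, 2.89 and 4.77 TPM in females. In both, males 1 and 2 exceeded all females and male 3 did not. Their log2 fold changes were 0.54 ± 0.35 and 0.97 ± 0.43 (SE), with adjusted p of 0.522 and 0.317 in limma. A second CCHamide-1 receptor-like gene, TRINITY_DN43394_c2_g19, was at 6.11, 4.83 and 2.25 TPM in males and 3.37, 1.28 and 3.31 TPM in females, with an adjusted p of 0.654 in limma.

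Tachykinins are brain and gut peptides, and in Drosophila they also damp the output of olfactory receptor neurons. The 2 genes matched to the Drosophila tachykinin receptor TkR99D both had all males above all females, beside 13.3% of all genes tested. Both reached 5 TPM in males alone, so this order rests in part on that selection and is a description. TRINITY_DN44862_c0_g5 had 4.52, 6.96 and 4.27 TPM in males and 2.17, 2.25 and 4.22 TPM in females, and TRINITY_DN45102_c0_g5 had 4.73, 6.40 and 3.67 TPM in males and 1.22, 2.42 and 2.76 TPM in females. The margin between the lowest male and the highest female was small in both. Their log2 fold changes of 0.70 ± 0.40 and 0.93 ± 0.42 (SE) had adjusted p of 0.459 and 0.331 in limma.

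Capa and pyrokinin peptides act on water balance and muscle in insects, and their receptors are relatives of the vertebrate neuromedin-U receptors. TRINITY_DN9906_c0_g2, matched to the Drosophila Capa receptor, had 7.80, 1.61 and 7.88 TPM in males and 5.50, 2.94 and 3.55 TPM in females. Male 2 was the lowest library here, and males 1 and 3 were the highest, unlike the order seen in most receptors. The neuromedin-U receptor-like TRINITY_DN46061_c0_g4 was at 3.32, 4.52 and 1.63 TPM in males and 0.52, 1.75 and 1.41 TPM in females. Their adjusted p was 0.870 and 0.502 in limma.

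TRINITY_DN42341_c1_g1, named after the prolactin-releasing peptide receptor, had 5.10, 5.19 and 0.59 TPM in males and 0.36, 0.95 and 1.45 TPM in females. TRINITY_DN45096_c0_g3, an orphan called neuropeptide GPCR A17 in a planthopper, stayed at or below 1.51 TPM in F. occidentalis and was not tested. TRINITY_DN3259_c0_g1, of 215 bases, has a human melanocyte-stimulating hormone receptor as its closest match and not an insect protein. It was at 9.98, 0 and 2.20 TPM in males and 8.80, 6.59 and 3.17 TPM in females, so whether it is a thrips gene was not tested. The other 9 peptide receptors tested, matched to neuropeptide Y, somatostatin, gonadotropin-releasing hormone and similar receptors, had log2 fold changes between 0.35 and 1.46 and none passed.

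The 3 amine receptors of highest mean in F. occidentalis were a tyramine receptor-like and 2 octopamine receptor-like genes. TRINITY_DN45854_c0_g2, matched to the Drosophila octopamine receptor beta-1R, had 5.80, 6.49 and 4.88 TPM in males and 1.25, 0.95 and 2.65 TPM in females. All males were above all females, male replicate 3 included, and its log2 fold change of 1.41 ± 0.42 (SE) had an adjusted p of 0.143 in limma, the lowest among the receptors. TRINITY_DN46278_c0_g2, the beta-2R-like gene, had 3.70, 4.70 and 5.32 TPM in males and 1.99, 3.70 and 3.21 TPM in females. Here male 3 was the highest library and male 1 equalled female 2 (adjusted p = 0.597 in limma). The Oamb-like TRINITY_DN45755_c0_g6, of 238 bases, was at 3.71, 6.84 and 1.09 TPM in males and 0.61, 1.72 and 0.63 TPM in females, and overlapped at male 3. The tyramine receptor-like TRINITY_DN38791_c0_g20 was at 6.60, 5.70 and 1.36 TPM in males and 2.09, 3.06 and 4.75 TPM in females. Male 3 was the lowest of the 6 libraries for it.

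Dopamine and serotonin have receptors of the same fold. The D2-like dopamine receptor TRINITY_DN44700_c0_g3 had 7.05, 4.81 and 0.48 TPM in males and 1.29, 0.74 and 2.24 TPM in females. Its males held both the highest and the lowest library. TRINITY_DN44011_c0_g1, called a dopamine/ecdysteroid receptor in a cricket, had 3.11, 4.49 and 4.79 TPM in males and 2.24, 2.70 and 1.71 TPM in females. All males were above all females, and the log2 fold change was 0.67 ± 0.40 (SE), with an adjusted p of 0.488 in limma. In Drosophila a receptor of that kind answers both dopamine and the moulting hormone ecdysone. The serotonin receptor-like TRINITY_DN40706_c2_g6 was at 4.14, 6.90 and 2.72 TPM in males and 2.01, 1.92 and 3.53 TPM in females. A further serotonin receptor-like gene, TRINITY_DN40226_c0_g4, was at 1.44, 2.17 and 1.07 TPM in males and 0.75, 0.18 and 0 TPM in females with no overlap (adjusted p = 0.602 in limma). Of the 3 amine receptors not described singly, a beta-3R-like and a serotonin receptor-like gene had log2 fold changes of 1.70 and 0.80, with adjusted p of 0.285 and 0.645 in limma, and a dopamine receptor-like gene was too low to be tested.

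Acetylcholine also acts through receptors of this fold, the muscarinic type. TRINITY_DN39370_c2_g1 was at 2.04, 5.46 and 1.26 TPM in males and 1.26, 2.41 and 1.37 TPM in females. TRINITY_DN42124_c0_g10 was at 2.63, 5.75 and 2.19 TPM in males and 3.08, 0.76 and 2.09 TPM in females. Both overlapped between the sexes, with male 2 the highest. An alpha-1A adrenergic receptor-like gene, TRINITY_DN41477_c1_g3, was at 4.19, 5.99 and 1.47 TPM in males and 2.29, 3.06 and 3.49 TPM in females. Adjusted p over these 3 ranged between 0.655 and 0.902 in limma.

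Of the 5 genes that were neither, 3 were matched to moody, a receptor that Drosophila needs in the glia of its blood-brain barrier. TRINITY_DN41587_c0_g2 had 3.68, 5.42 and 3.0 TPM in males and 2.01, 2.68 and 2.88 TPM in females, with all males above all females by a narrow margin and an adjusted p of 0.624 in limma. TRINITY_DN28003_c0_g1 was at 2.94, 6.63 and 0.69 TPM in males and 0, 1.88 and 0.41 TPM in females, and TRINITY_DN36764_c0_g1 stayed at or below 0.56 TPM in F. occidentalis. TRINITY_DN41853_c0_g1 was named after HIV Tat-specific factor 1, a nuclear RNA-binding protein, and carried the 7tm_1 domain all the same. It was level at 8.88, 4.92 and 4.91 TPM in males and 5.21, 6.39 and 8.86 TPM in females. The fifth, TRINITY_DN55162_c0_g1, named after free fatty acid receptor 4, was at or below 1.92 TPM in F. occidentalis.

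**Figure D3:**
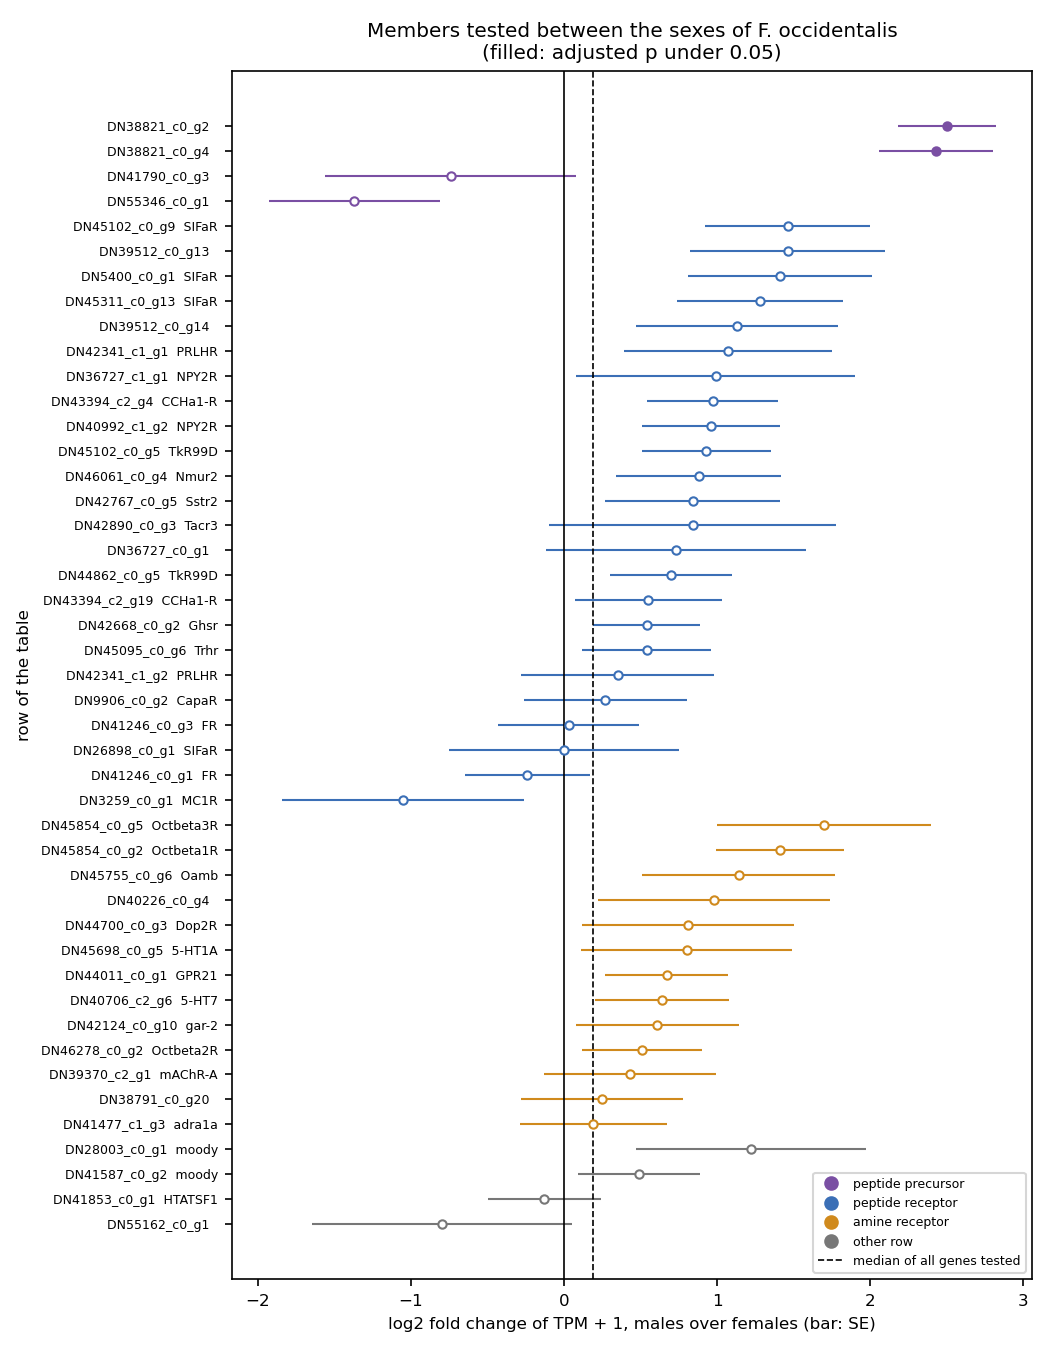
Log2 fold change of TPM + 1 (points, with SE bars), males over females of F. occidentalis, for the 45 genes tested, coloured by class and filled where the adjusted p passed 0.05. The 2 filled points are SIFamide/FMRFamide-like precursors at 2.50 and 2.43, and most receptors lie to the right of the dashed line at 0.19, the median of all genes tested.

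Other genes of the same pathway gave the surroundings of these results. Enzymes and cofactors that mature peptides (31 genes, 18 tested) had a median log2 fold change of 0.77. None passed in limma, with 3 at an unadjusted p under 0.05, beside 15.5% of all genes tested. They summed to 2276, 1523 and 594.9 TPM in males and 569.9, 718.2 and 894.0 TPM in females, with males 1 and 2 above all females and male 3 within them. The list includes the convertases and their helper 7B2, carboxypeptidase E and the amidating enzymes. TRINITY_DN45593_c1_g7, matched to neuroendocrine convertase 2, averaged 119.4 ± 73.9 TPM in males and 48.0 ± 19.1 TPM in females (SD, n = 3 each). TRINITY_DN42263_c1_g1, matched to the amidating lyase Pal2, had 94.68, 72.82 and 18.68 TPM in males and 17.51, 20.45 and 23.59 TPM in females. Without male replicate 3, where 183 of all 20875 genes tested passed, it was the 1 gene of the list to pass, with an adjusted p of 0.0294 in limma, beside 0.297 with all libraries. That call leaves out the lowest male and was added after seeing the data, so it is a description.

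The 20 genes of other peptide hormones (15 tested) included myosuppressin, adipokinetic hormone, cardioactive peptide, calcitonin-like diuretic hormone and the glycoprotein hormones. Their median log2 fold change was 0.51, and none passed in limma. At an unadjusted p under 0.05 there were 2, beside 15.5% of all genes tested. The sums were 617.6, 508.5 and 139.9 TPM in males and 199.5, 269.6 and 202.6 TPM in females, with male 3 the lowest of the 6. Myosuppressin, which slows gut and heart muscle in insects, had 174.7, 148.05 and 33.40 TPM in males and 51.43, 32.88 and 36.82 TPM in females for TRINITY_DN39105_c0_g1. Neither myosuppressin gene passed with all libraries. In the fit without male replicate 3, where 183 of all 20875 genes tested passed, both did. Their log2 fold changes were 1.99 and 1.98, with adjusted p of 0.0328 and 0.0285 in limma. Calls of this list without male 3, low for its sum, were added after seeing the data, so they are a description. The cardioactive peptide gene TRINITY_DN45233_c0_g2 averaged 22.7 ± 1.59 TPM in males and 17.9 ± 4.81 TPM in females (SD, n = 3 each), and an ion transport peptide-like gene, TRINITY_DN45767_c3_g1, 3.70 ± 0.243 TPM in males and 9.34 ± 3.49 TPM in females (adjusted p = 0.202 in limma).

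Of the 44 genes for making and moving amines (26 tested, median 0.21), 1 was called, as higher in males, beside 0.968% of all genes tested. It was a dopamine transporter-like contig of 201 bases, TRINITY_DN34232_c0_g1, at 5.94, 15.07 and 9.41 TPM in males and 1.58, 0 and 0 TPM in females, with an adjusted p of 0.0358 in limma. This contig reached 5 TPM in males alone, and the 3 males sufficed for the filter on low values, so its call rests on that selection. No gene of this list passed without male replicate 3. Of the 52 genes of receptor signalling (31 tested, median 0.20), 1 was lower in males, beside 0.918% of all genes tested. TRINITY_DN46724_c0_g8 had 67.19, 59.48 and 74.40 TPM in males and 270.87, 232.13 and 200.54 TPM in females, and the log2 fold change was -1.79 ± 0.25 (SE), with an adjusted p of 0.0132 in limma. Its match is Rack1, a scaffold protein that sits on ribosomes and resembles a G-protein beta subunit in sequence.

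**Figure D4:**
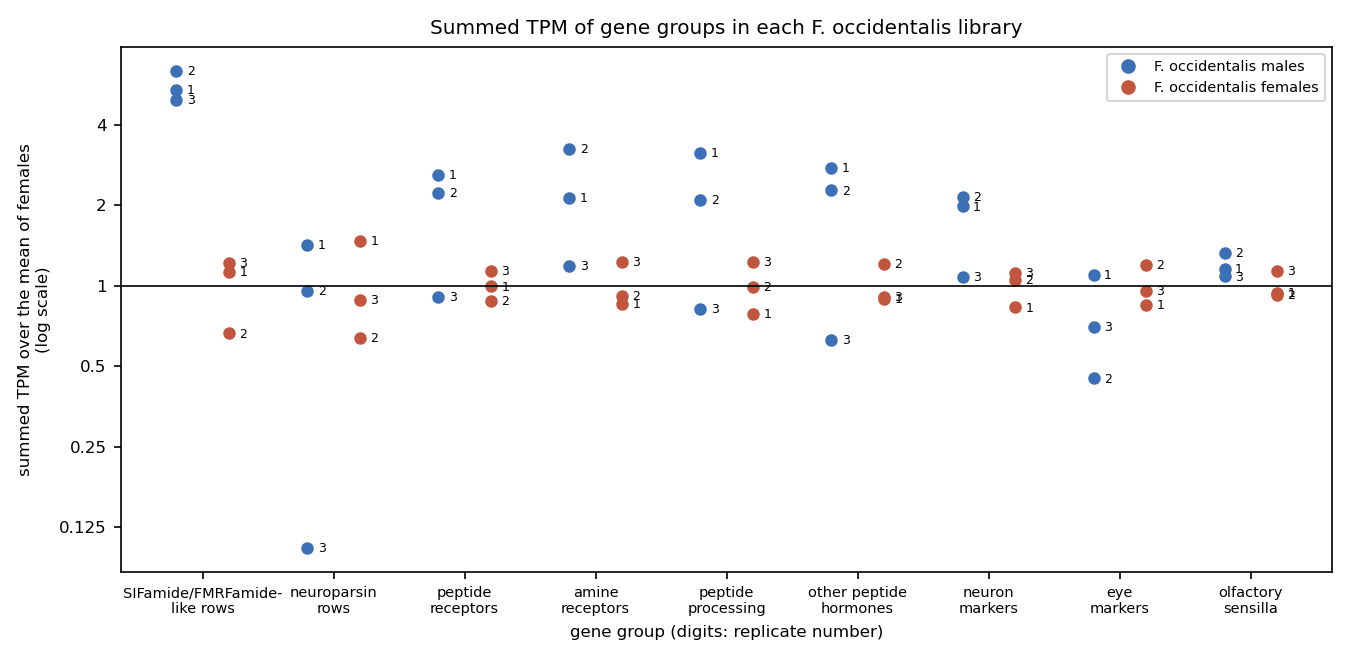
Summed TPM of each gene group in each F. occidentalis library, divided by the mean of the 3 females (log axis), with males left of females and the replicate number beside each point. Male replicate 3 lies with or below the females for peptide receptors (56.7 TPM), processing enzymes (594.9 TPM) and other peptide hormones (139.9 TPM), and with the other males for the SIFamide/FMRFamide-like precursors (1060 TPM).

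The F. intonsa libraries differed widely in how many genes they held above 0. Of the 51 genes, 8, 33 and 3 were above 0 in F. intonsa replicates 1, 2 and 3, and 44 to 46 were in the F. occidentalis female libraries. Of all genes, 33.5%, 58.3% and 21.6% were above 0 in the same F. intonsa libraries. Replicate 2 was the highest F. intonsa library in 32 of the 34 genes above 0 in any, and 17 genes were listed at 0 in all 3. A listing at 0 in a shared assembly can be a difference of sequence as well as of level, and the 2 cannot be told apart here.

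In the test of F. intonsa over F. occidentalis females, 31 genes entered and 20 passed an adjusted p of 0.05 in limma (64.5%), beside 85.4% of the 21231 genes tested. All 20 were lower in F. intonsa, so 64.5% of the 31 were called lower, beside 68.3% of all genes tested. None was called higher, beside 17.1%. The 20 were 4 precursors, 13 peptide receptors and 3 amine receptors, and 10 of them were listed at 0 in every F. intonsa library. Over all genes called, 81.8% were listed at 0 in a whole group. A gene at 0 in F. intonsa could meet the filter of 1 TPM in 3 libraries through the F. occidentalis females alone, which fixed its direction as lower, so these counts are a description. Without any 1 of the F. occidentalis females, 1 of the members passed. The median log2 fold change over all genes tested was -2.35. With quantile normalization that median was -0.20, 23 of the 31 genes had a positive log2 fold change, and 6 passed, 3 higher and 3 lower. Some of the 23 were listed at 0 in every F. intonsa library. Among the 6 was TRINITY_DN40992_c1_g2, at 0, 0.11 and 0 TPM in F. intonsa and 1.80, 1.51 and 1.73 TPM in F. occidentalis females. This scaling gives the many tied 0 values of a library 1 shared value, so its signs cannot show which species was higher. The sign for these genes depended on the scaling.

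The SIFamide/FMRFamide-like precursors of the 2 species were listed as different genes of 1 component. TRINITY_DN38821_c0_g2 and TRINITY_DN38821_c0_g4 were at 0 in each library of F. intonsa and at 106.09 TPM or more and 35.91 TPM or more in F. occidentalis females. TRINITY_DN38821_c0_g3, the SIFamide-like gene of the same component, had 13.51, 466.60 and 0.09 TPM in F. intonsa and was listed at 0 in every F. occidentalis library. The neuroparsins were split in part. TRINITY_DN41790_c0_g2 was at 7.72, 30.23 and 0 TPM in F. intonsa and at 0 throughout F. occidentalis. TRINITY_DN41790_c0_g3, of the same component, was at 0, 12.31 and 0 TPM in F. intonsa and between 30.87 and 69.90 TPM in F. occidentalis females. Summed over their genes, SIFamide/FMRFamide-like precursors were at 13.5, 466.6 and 0.09 TPM in F. intonsa, against 240.4, 142.0 and 260.2 TPM in F. occidentalis females. Replicate 2 of F. intonsa was above, and replicates 1 and 3 below, all F. occidentalis females.

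Among receptors, serotonin and dopamine receptors were the most abundant in F. intonsa. TRINITY_DN40226_c0_g1, called a 5-hydroxytryptamine receptor, had 12.17, 59.44 and 0 TPM in F. intonsa, and at most 0.38 TPM in F. occidentalis females. TRINITY_DN40226_c0_g4 of the same component was at 0, 17.51 and 0 TPM in F. intonsa and at 0.75, 0.18 and 0 TPM in F. occidentalis females. The dopamine/ecdysteroid receptor-like TRINITY_DN44011_c0_g1 was above 0 in all 9 libraries, at 1.35, 33.90 and 0.03 TPM in F. intonsa and 2.24, 2.70 and 1.71 TPM in F. occidentalis females. F. intonsa replicates spread from below to far above the F. occidentalis range, and its adjusted p was 0.763 in limma.

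In F. intonsa replicate 2, the library with the most genes above 0, the leading peptide receptors were the growth hormone secretagogue receptor-like gene at 10.89 TPM, the neuromedin-U receptor-like gene at 9.41 TPM, an FMRFamide receptor-like gene at 5.86 TPM and the orphan A17 at 5.34 TPM. All 4 were at or below 0.18 TPM in the other 2 F. intonsa libraries. The octopamine beta-1R-like gene was at 5.07 TPM there, the adrenergic receptor-like gene at 8.55 TPM and the D2-like dopamine receptor at 5.67 TPM, each listed at 0 in the other 2. The amine receptors summed to 13.5, 135.7 and 0.03 TPM in F. intonsa and 20.8, 22.2 and 29.8 TPM in F. occidentalis females. Peptide receptors summed to 0.18, 36.9 and 0.00 TPM in F. intonsa and 61.9, 54.5 and 70.5 TPM in F. occidentalis females. Replicate 2 was thus above every F. occidentalis female for amine receptors and below every one for peptide receptors, though the other replicates were below for both. The moody-like TRINITY_DN41587_c0_g2 was at 7.47, 9.69 and 0 TPM in F. intonsa and 2.01, 2.68 and 2.88 TPM in F. occidentalis females, with an adjusted p of 0.742 in limma. The other moody-like and fatty acid receptor-like genes were above 0 in replicate 2 alone, at 0.28 to 6.15 TPM, and the HIV Tat-specific factor 1-like gene was at 7.0, 0.88 and 0.04 TPM in F. intonsa.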

How the data were processed

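SMARTer template switching turned small amounts of total RNA into cDNA, which was amplified by PCR and fragmented, per the labels' protocols. Such amplification can widen the spread of low transcripts between libraries. Tools used were Salmon, cutadapt and FastQC, per the submitters' processing notes. No version or assembler is named there. A single table of TPM for 48889 assembled genes was deposited by the authors with annotation text, and the unit was taken from the column sums (935518 to 987791) and from Salmon. It keeps no read numbers, and depth is therefore unknown. Column names gave the sample of each of the 9 value columns.

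Each comparison was fitted on the whole table on log2(TPM + 1) with the trend method of limma 3.58.1 in R 4.3.3, over genes with at least 1 TPM in at least 3 of its 6 libraries, with Benjamini-Hochberg adjustment and a threshold of 0.05. Because of the added 1, fold changes of low genes come out too small. No fold is given against a group listed at 0. The fits were also run on simulated data with known changes, drawn as independent values around the F. occidentalis female means. These had no rule of entry at 5 TPM and no outlying library, so they do not test those limits. Sums and plots used Python 3.11.15, pandas 2.3.3, numpy 2.4.6 and matplotlib 3.10.9.

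The members, gene lists and tests were chosen with earlier results of these data known. The wording of the lists was trimmed after the annotation texts were read. Genes named with values are every precursor, every member past the threshold by sex, the 10 of highest mean in F. occidentalis in each receptor class, the 5 of highest mean in F. intonsa in each class, and members above 0 in all libraries. Alternatives covered the pseudocount, the filter, quantile normalization, the trend, a replicate block, a fit of all 9 libraries, summed components and leaving out each library.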

Additional observations from a re-analysis of the deposited data

How the results depend on the processing

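Over all genes, 415 passed between the sexes, with 271 at a pseudocount of 0.1, 116 without the filter on low values, 207 after quantile normalization, 198 without the trend and 18 to 285 when each library was left out. Of the 2 precursors, 1 passed without the filter and 1 without the trend, and 0 to 2 passed when each library was left out (0 without female replicate 1 or 2, 1 without male replicate 3 or female replicate 3). TRINITY_DN38821_c0_g4 had adjusted p of 0.0537 without the filter, 0.0541 without the trend, 0.0506 without male replicate 3 and 0.0661 without female replicate 3 in limma. With components summed, 362 of 11616 passed, among them 2 of the 38 that hold members: that of the precursors and TRINITY_DN45102_c0 (log2 fold change 1.31 ± 0.28, SE, adjusted p = 0.0389 in limma). The latter holds a SIFamide receptor-like and a tachykinin receptor-like gene beside 5 other contigs, some named after an oxysterol-binding protein and neurobeachin. Both of those receptor-like genes reached 5 TPM in males alone, so the call of this component rests in part on that selection.

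Between the species, 18127 genes passed, with 11047 after quantile normalization, 6081 with components summed and 3346 to 16126 when each library was left out. Of the 51 members 20 passed, with 6 after quantile normalization, 12 components when summed, and 1 to 24 when each library was left out. Without any 1 of the F. occidentalis females, 7802 to 7825 genes were tested and 1 member passed; most genes not seen in F. intonsa then miss the filter by construction.

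Replicate numbers did not pair the samples: deviations of same-numbered libraries correlated between -0.0353 and 0.0499 by sex and between -0.0554 and 0.0266 by species. With the number as a replicate block, 363 genes and 2 members passed by sex, and 18104 genes and 21 members by species.

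Of 360 alternative values for the 31 named members tested by sex, 338 kept direction and side of the threshold, 8 kept direction but lost the call (both precursors), and 14 changed sign, none of them called. After quantile normalization TRINITY_DN41246_c0_g3 was at -0.21, TRINITY_DN41477_c1_g3 at -0.08 and TRINITY_DN9906_c0_g2 at -0.01. When each library was left out, the log2 fold change lay for TRINITY_DN38791_c0_g20 between -0.07 and 0.78, for TRINITY_DN39370_c2_g1 between -0.01 and 0.75, for TRINITY_DN41246_c0_g1 between -0.48 and 0.12, for TRINITY_DN41246_c0_g3 between -0.33 and 0.32, for TRINITY_DN41477_c1_g3 between -0.13 and 0.62, for TRINITY_DN41790_c0_g3 between -1.44 and 0.39, for TRINITY_DN41853_c0_g1 between -0.38 and 0.05 and for TRINITY_DN9906_c0_g2 between -0.03 and 0.86. The cause of these shifts was not tested. The signs of the receptor classes under quantile normalization and without male replicate 3, and the calls of the gene lists without that library, were added after seeing the data.

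Depth is unknown, so a value of 0 gives no upper limit, and most receptors lie near the 5 TPM at which a gene entered the table. The 3 libraries of a group, the PCR amplification and the shared assembly limit every value. Whether contigs of 1 component are pieces of 1 gene was not tested.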

Other observations

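Receptors outside the rhodopsin-like fold and the enzymes that clear peptides completed the pathway. The 10 class B and insulin receptor genes, which answer hormones such as diuretic hormones and insulin-like peptides, summed to 31.1, 29.8 and 22.1 TPM in males and 14.1, 18.3 and 21.3 TPM in females of F. occidentalis, so all males lay above all females. Of the 7 tested by sex, 0 passed in limma, 0 had an unadjusted p under 0.05 and 6 had a positive log2 fold change, with a median of 0.53. In F. intonsa females these receptors summed to 17.1, 29.7 and 23.9 TPM, a narrower spread than that of the rhodopsin-like receptors in the same libraries.

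The 66 genes of peptide breakdown, such as neprilysins and aminopeptidases, summed to 742.5, 758.4 and 462.4 TPM in males and 451.9, 594.0 and 625.5 TPM in females, and male replicate 3 was within the female range. Of the 48 tested, 0 passed in limma and 9 had an unadjusted p under 0.05, beside 15.5% of all genes tested. Without male replicate 3, where 183 of 20875 genes passed, the aminopeptidase N-like TRINITY_DN44906_c0_g2 passed at a log2 fold change of 1.81 ± 0.27 (SE), with an adjusted p of 0.0378 in limma. It had 53.69, 51.3 and 12.14 TPM in males and 14.8, 12.2 and 15.94 TPM in females. Its call leaves out the lowest male and was added after seeing the data, so it is a description.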
